A study of Mus musculus with 8 samples.

Results

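GABAergic interneuron identity was followed through 10 genes of the 32726 in the count table: the GABA enzymes and vesicular transporter Gad1, Gad2 and Slc32a1, the transcription factors Dlx1, Dlx2, Dlx5, Dlx6 and Lhx6, and the neuropeptides Sst and Npy. They were taken by symbol as a set that marks inhibitory neurons, and all 10 passed the filter on low counts. RNA was sequenced from cultured embryonic neurons of mice carrying a constitutive Nuak1 knockout (KO) and of wild-type mice (WT), 4 libraries each, all kept 5 days in vitro without serum. The mice were of a C57Bl/6JRj background, and KO pups die at birth. The study describes cortical neurons, whereas the tissue label reads cortex or hippocampus for every library, so no region is assigned here. The knockout acts in every cell of the embryo, and cultures of cortical neurons hold excitatory neurons as their main type with interneurons and glia among them.

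GABAergic interneurons release the inhibitory transmitter GABA and restrain the firing of excitatory projection neurons. They are not born in the cortex but in the ganglionic eminences of the ventral forebrain, where the Dlx factors switch on the GABA program and Lhx6 directs cells from the medial eminence toward somatostatin and parvalbumin fates, and they then migrate into the cortex and hippocampus. Glutamate decarboxylase, made from Gad1 and Gad2, turns glutamate into GABA, and the transporter encoded by Slc32a1 loads it into synaptic vesicles.

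The 10 genes lie on chromosomes 2, 6 and 16 (RefSeq positions, GRCm38). Dlx1 (chr2:71528113-71533981) and Dlx2 (chr2:71543408-71546754) are neighbours separated by 9426 bases, and Dlx6 (chr6:6863334-6867970) and Dlx5 (chr6:6877801-6882068) by 9830 bases. The other chromosome 2 genes are Gad1 (chr2:70561303-70602014), Gad2 (chr2:22621015-22693877), Slc32a1 (chr2:158607260-158615747) and Lhx6 (chr2:36081950-36105992). Npy is at chr6:49822710-49829507 and Sst at chr16:23889573-23891342. RefSeq promoter windows of 300 bases, from 250 before to 50 after a transcription start, were matched for 8 of the 10 genes in 10 windows, Lhx6 having several. The stretches of 250 bases upstream of the start of the pair Dlx1 and Dlx2 and of the neuropeptide genes are shown because each pair moved together between libraries. Capitals mark TGACGTCA, the palindromic cyclic AMP response element, or its shorter core TGACG, which it contains, on either strand (GRCm38.p6, printed 5′ to 3′ on the strand of the gene).
Dlx1 (chr2:71529195-71529444, plus strand): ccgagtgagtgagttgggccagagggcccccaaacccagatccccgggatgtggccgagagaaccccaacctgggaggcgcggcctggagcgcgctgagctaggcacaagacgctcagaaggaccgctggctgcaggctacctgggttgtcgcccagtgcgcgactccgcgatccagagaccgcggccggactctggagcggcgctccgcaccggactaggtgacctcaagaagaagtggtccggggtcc
Dlx2 (chr2:71546755-71547004, minus strand): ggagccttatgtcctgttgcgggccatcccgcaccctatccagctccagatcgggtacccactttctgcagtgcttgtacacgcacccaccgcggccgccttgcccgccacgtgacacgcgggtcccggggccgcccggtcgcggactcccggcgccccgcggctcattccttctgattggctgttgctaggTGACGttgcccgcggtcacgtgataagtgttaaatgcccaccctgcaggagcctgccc
Sst (chr16:23890845-23891094, minus strand): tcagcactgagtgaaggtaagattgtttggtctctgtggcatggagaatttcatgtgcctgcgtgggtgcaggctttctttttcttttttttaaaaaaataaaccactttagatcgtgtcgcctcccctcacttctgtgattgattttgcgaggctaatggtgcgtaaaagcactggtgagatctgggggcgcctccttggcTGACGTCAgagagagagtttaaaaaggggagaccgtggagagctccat
Npy (chr6:49822460-49822709, plus strand): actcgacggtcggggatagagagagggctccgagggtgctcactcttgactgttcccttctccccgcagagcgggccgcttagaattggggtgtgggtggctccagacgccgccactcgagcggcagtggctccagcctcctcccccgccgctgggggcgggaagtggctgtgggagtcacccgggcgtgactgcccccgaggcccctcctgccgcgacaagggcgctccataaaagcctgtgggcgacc

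TGACGTCA occurred in 1 of the 10 windows, that of Sst, where it began 48 bases upstream of the start, against 1.79% of 32851 promoter windows of the same length. The shorter TGACG occurred in 3 of the 10 windows, those of Gad2, Dlx2 and Sst, against 20.8% of all windows. The homeodomain core TAATTA, of the kind that DLX proteins recognise, was in 0 of the 10 windows, against 5.29% of all windows. These are matches of letters only, and nothing about binding was measured.

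Depth ranged from 31247078 to 67155004 counts per library. Nuak1 itself held 86 to 102 counts in KO and 1612 to 4598 counts in WT, a log2 fold change of −4.89 (SE 0.13, edgeR quasi-likelihood test, Benjamini-Hochberg (BH) adjusted p = 1.24e-07), so each library matched its label. The labels name a sequencing lane, A for KO1, KO4, WT1 and WT3, and B for KO2, KO3, WT2 and WT4. KO1 and WT1 stood apart from the other libraries on the surrogate variable, a computed covariate that captures variation not explained by genotype (−0.558 and −0.621, against 0.048 to 0.392 in the other libraries). Among the 10 genes, WT3 stood apart as well, with the lowest Dlx1 and Dlx2 and the highest Sst, Npy and Slc32a1 of all libraries. Results that rest on WT3 or on KO1 and WT1 are therefore given with and without them. The labels also carry a strain code that is not explained. It is BJ in KO1 to KO3, BK in KO4, WT2 and WT4, BO in WT1 and BQ in WT3. WT1 and WT3 are thus each alone under their code, and BK is the only code with both genotypes. Differences between KO and WT in level or spread cannot be fully told apart from these codes.

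Every library held transcripts of all 10 genes. Per kilobase of exon, which allows genes to be compared, Sst was the highest at 42.6 ± 31.4 CPM (library-scaled counts) per kb (mean ± SD over 8 libraries), followed by Gad1 at 13.0 ± 4.24, Dlx1 at 10.6 ± 3.92 and Npy at 10.5 ± 5.28. Gad2 (5.66 ± 2.05), Lhx6 (5.54 ± 1.54) and Slc32a1 (4.11 ± 2.07) were intermediate. Dlx2 (1.87 ± 0.560), Dlx5 (1.29 ± 0.341) and Dlx6 (0.948 ± 0.268) were the lowest. No neighbours in this order were separated by more than their spread, since the 1 SD ranges of each gene and the next overlapped. Sst was above Gad1 in 7 of 8 libraries, whereas Gad1 was above Dlx1 in 4 of 8. Of the chromosomal neighbours, Dlx1 was thus well above Dlx2, while Dlx5 was above Dlx6 in 6 of 8 libraries.

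The 10 genes varied more between libraries than most transcripts. The highest library was 2.97 times the lowest at the median of the 10 genes (from 1.999 for Lhx6 to 11.2 for Sst), against 1.76 at the median of all 16272 tested genes. Values below are CPM by library total unless stated otherwise, and the plot of CPM by library shows them all.

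**Figure D1:**
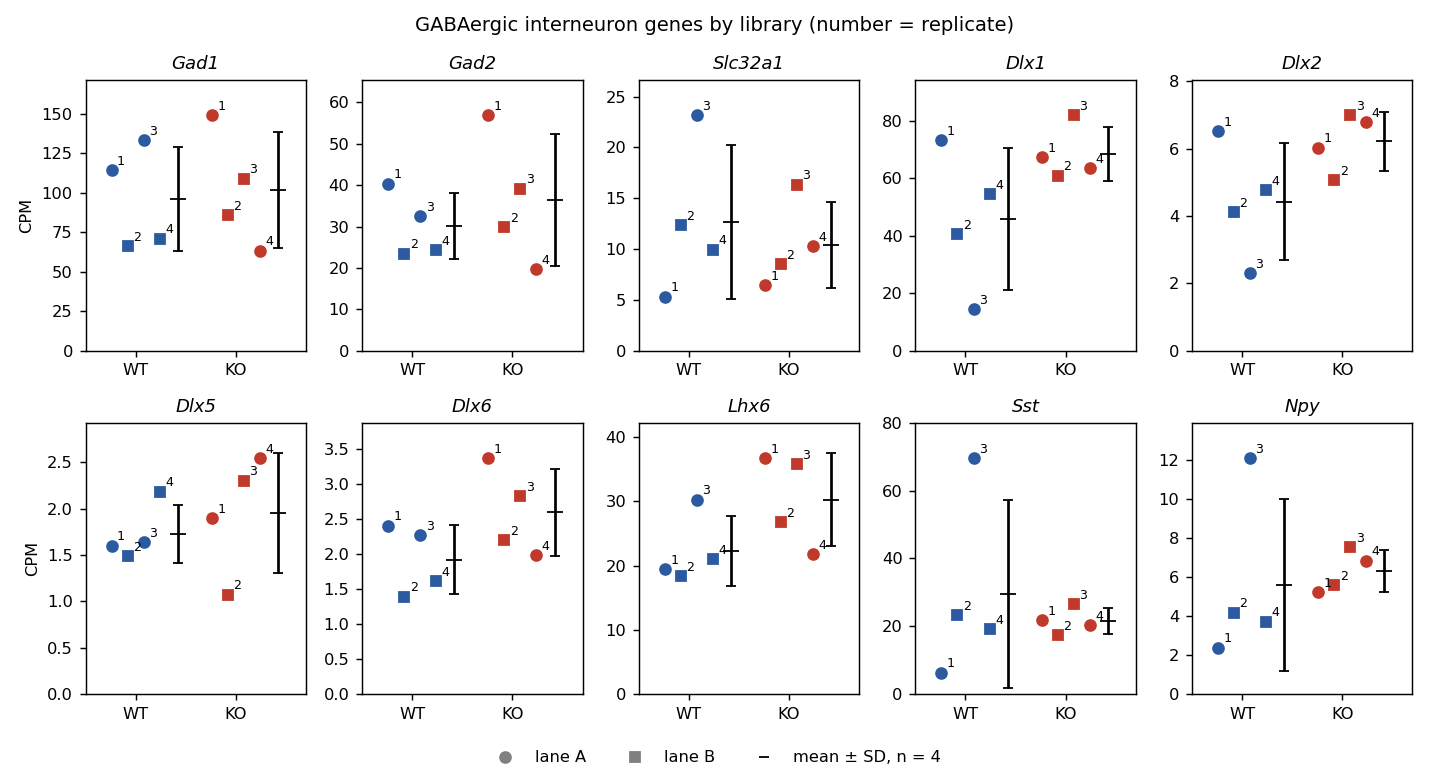
CPM of the 10 GABAergic interneuron genes in each library (y axis, linear, starting at 0), WT in blue and KO in red, circles for lane A and squares for lane B, with the replicate number beside each point and the mean ± SD of 4 libraries as a bar. WT and KO libraries overlap for every gene, and WT3 is the lowest WT point for Dlx1 (14.5 CPM) and the highest for Sst (69.6 CPM).

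Over the set, 0 of the 10 genes passed the BH threshold of 0.05, which 8 of 16272 tested genes did (0.0492%). At the lower threshold that the study used for its gene lists, an absolute log2 fold change above 0.25 with an unadjusted p under 0.05, 0 of the 10 passed and 936 of all tested genes did (5.75%). The unadjusted p was not under 0.05 for any of the 10, whereas it was for 1728 tested genes (10.6%). No member had KO and WT libraries without overlap, a state that 390 tested genes were in (2.4%). The direction was higher in KO for 7 of 10 members, with a median log2 fold change of 0.25, against 53.8% and a median of 0.015 over all tested genes. The smallest adjusted p of the 10 was 0.493, for Dlx2. In RNA from whole cultures, fewer cells of a type and less RNA per cell cannot be told apart.

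The enzymes that make GABA did not separate the genotypes. Gad1, which encodes the larger glutamate decarboxylase that supplies most GABA in the cell, was at 149, 85.9, 109 and 63.3 CPM in KO1 to KO4 and at 114, 66.1, 133 and 70.9 CPM in WT1 to WT4. The highest and the lowest library were both KO, and the groups overlapped throughout. The log2 fold change (KO minus WT) was −0.0083 (SE 0.28, 95% interval −0.65 to 0.63, edgeR BH adjusted p = 0.995), an interval that leaves room for a difference of either sign. Gad2, the smaller isoform, which is concentrated at synaptic terminals, followed Gad1 with 56.9, 29.8, 39.2 and 19.6 CPM in KO1 to KO4 and 40.3, 23.4, 32.5 and 24.3 CPM in WT1 to WT4. KO1 was again the highest and KO4 the lowest library. For Gad2 it was 0.16 (SE 0.23, interval −0.36 to 0.69, adjusted p = 0.831). The ratio of Gad2 to Gad1 lay between 0.310 and 0.382 in 7 libraries and was 0.244 in WT3.

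Slc32a1, whose product fills synaptic vesicles with GABA, followed the enzymes in some libraries and not in others. It was at 6.44, 8.50, 16.3 and 10.3 CPM in KO1 to KO4 and at 5.31, 12.4, 23.2 and 9.95 CPM in WT1 to WT4. Its lowest libraries were KO1 and WT1, where Gad1 was high, and its highest was WT3. Over the 8 libraries its Pearson correlation with Gad1 was −0.020, without KO1 and WT1 it was 0.80, and without WT3 it was −0.47. KO minus WT, the log2 fold change came to −0.17 (SE 0.23, interval −0.69 to 0.35, edgeR BH adjusted p = 0.824), and without WT3 it was 0.036.

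Of the members grouped by role, the transcription factors had the highest median difference. All 5 had a positive log2 fold change, with a median of 0.41, against a median of 0.015 over all tested genes, of which 53.8% were higher in KO. None of the 5 passed either threshold. Dlx1, a homeobox gene of ventral progenitors and migrating interneurons, was at 67.4, 60.8, 81.9 and 63.5 CPM in KO1 to KO4 and at 73.1, 40.6, 14.5 and 54.4 CPM in WT1 to WT4. All KO libraries were above WT2, WT3 and WT4, and WT1 was within the KO range. Its log2 fold change was 0.66 (SE 0.34, interval −0.13 to 1.45, edgeR BH adjusted p = 0.541), and without WT3 it was 0.31 (SE 0.18, adjusted p = 0.453).

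Dlx2, the neighbour of Dlx1 and its partner in the same program, repeated this order at a lower level, with 6.04, 5.06, 7.002 and 6.80 CPM in KO1 to KO4 and 6.53, 4.11, 2.31 and 4.76 CPM in WT1 to WT4. WT1 was again the one WT library among the KO values. Its log2 fold change was 0.51 (SE 0.24, interval −0.024 to 1.05, BH adjusted p = 0.493) with all libraries and 0.29 (SE 0.17, adjusted p = 0.440) without WT3. The ratio of Dlx1 to Dlx2 lay between 9.35 and 12.03 in 7 libraries and was 6.28 in WT3, where Dlx1 was lower relative to Dlx2.

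Dlx6 and Dlx5, which act after Dlx1 and Dlx2 in differentiating interneurons, had the fewest counts of the 10 genes, 61 to 147 per library for Dlx6 and 37 to 120 for Dlx5. Dlx6 was at 3.36, 2.197, 2.82 and 1.98 CPM in KO1 to KO4 and at 2.40, 1.38, 2.27 and 1.61 CPM in WT1 to WT4. KO1 and KO3 were above every WT library, and KO2 and KO4 were not. KO exceeded WT by a log2 fold change of 0.38 (SE 0.21, interval −0.086 to 0.85, edgeR BH adjusted p = 0.545). Dlx5 was at 1.90, 1.07, 2.30 and 2.55 CPM in KO1 to KO4 and at 1.60, 1.49, 1.64 and 2.18 CPM in WT1 to WT4, so the KO libraries held both the lowest and the highest value. Its log2 fold change was 0.16 (SE 0.26, interval −0.42 to 0.75, adjusted p = 0.853).

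Lhx6, the LIM homeobox factor of interneurons from the medial ganglionic eminence, was at 36.7, 26.8, 35.8 and 21.8 CPM in KO1 to KO4 and at 19.4, 18.4, 30.2 and 21.0 CPM in WT1 to WT4. Every KO library was above WT1, WT2 and WT4, while WT3 lay inside the KO range. The log2 fold change was 0.41 (SE 0.21, interval −0.067 to 0.89, edgeR BH adjusted p = 0.524) with all libraries and 0.60 (SE 0.17, adjusted p = 0.160) without WT3.

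Both neuropeptides had their lowest and their highest value in WT libraries. Sst, the peptide of a major interneuron class that comes from Lhx6-positive cells, was at 21.7, 17.3, 26.6 and 20.3 CPM in KO1 to KO4 and at 6.24, 23.2, 69.6 and 19.1 CPM in WT1 to WT4. The 4 KO libraries lay between WT1 and WT3, which were the lowest and the highest of all. Sst averaged 21.5 ± 3.85 CPM over the KO libraries and 29.5 ± 27.7 CPM over the WT libraries (SD, n = 4). KO libraries carried codes BJ and BK and WT libraries BK, BO and BQ, so this spread cannot be assigned to genotype. The log2 fold change was −0.067 (SE 0.48, interval −1.18 to 1.04, edgeR BH adjusted p = 0.974), and it was 0.39 (SE 0.38, adjusted p = 0.687) without WT3.

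Npy, a peptide made by many somatostatin and neurogliaform interneurons, was at 5.202, 5.58, 7.52 and 6.82 CPM in KO1 to KO4 and at 2.37, 4.15, 12.1 and 3.71 CPM in WT1 to WT4. Every KO library was above WT1, WT2 and WT4, and WT3 was above every KO library. The log2 fold change was 0.34 (SE 0.33, interval −0.40 to 1.08, edgeR BH adjusted p = 0.738) with all libraries. Without WT3 Npy was higher in KO by 0.78 (SE 0.14, interval 0.48 to 1.09, adjusted p = 0.0424), in a model where 91 of 16425 tested genes (0.554%) passed the same threshold. This was the one case past the threshold among 240 fits, 10 genes under 24 other settings. WT3 was singled out after its values were seen, its Npy being the highest of all libraries. The fit without it is therefore not an independent test of Npy.

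**Figure D2:**
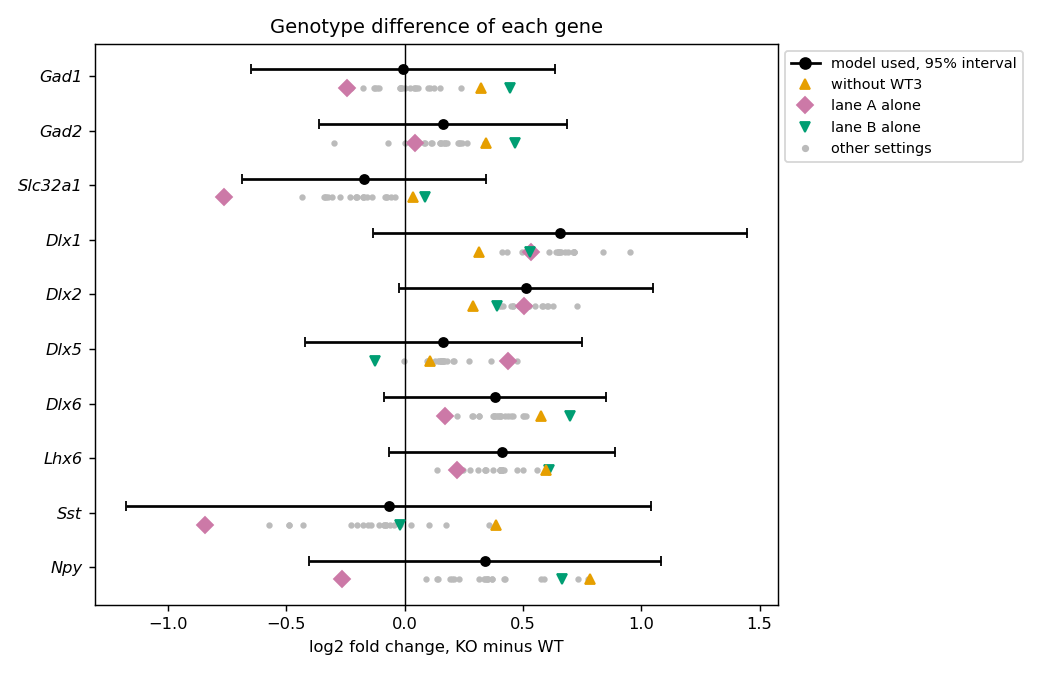
Log2 fold change, KO minus WT, of the 10 genes (x axis), with the 95% interval of the model used in black and the estimates of the other settings below it, where triangles pointing up are without WT3, diamonds lane A alone and triangles pointing down lane B alone. Every interval of the model used includes 0, and the estimates for Dlx1, Dlx2, Dlx6 and Lhx6 lie above 0 under all 24 other settings.

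Dlx1, Dlx2, Dlx6 and Lhx6 kept a positive sign under all 24 other settings, from 0.31 to 0.95 for Dlx1, 0.29 to 0.73 for Dlx2, 0.17 to 0.70 for Dlx6 and 0.14 to 0.61 for Lhx6, with a lowest adjusted p of 0.150, 0.213, 0.154 and 0.0756 respectively. Without both KO1 and WT1, 5 of the 10 genes passed the lower threshold, which 7.09% of tested genes did in that model. These were Dlx1 (0.64, SE 0.13), Dlx2 (0.59, SE 0.17), Dlx6 (0.51, SE 0.20), Lhx6 (0.34, SE 0.12) and Npy (0.59, SE 0.15), and 0 of them passed the BH threshold (0.115% of tested genes). Without WT3, 3 passed the lower threshold, Dlx6 (0.58, SE 0.17), Lhx6 and Npy, with 7.77% of tested genes doing so.

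The lanes differed in their estimates. On lane B alone, 6 of the 10 genes passed the lower threshold, all higher in KO, against 9.58% of tested genes, and 0 passed the BH threshold (0.588% of tested genes). These were Gad1 (0.44, SE 0.11), Gad2 (0.47, SE 0.13), Dlx1 (0.53, SE 0.17), Dlx6 (0.70, SE 0.23), Lhx6 (0.61, SE 0.13) and Npy (0.67, SE 0.19), where KO2 and KO3 were both above WT2 and WT4. On lane A alone, 0 of the 10 passed the lower threshold (0.591% of tested genes), with Gad1 at −0.24 (SE 0.44), Npy at −0.27 (SE 0.77) and Sst at −0.84 (SE 1.03). With 2 libraries a group, the interval for Sst on lane A ran from −3.51 to 1.82. In the test of the difference between lanes itself, an interaction term in edgeR, 0 of the 10 genes and 0 of all tested genes (0%) passed the BH threshold, and the smallest unadjusted p of the 10 was 0.227, for Gad1 (difference 0.69, interval −0.55 to 1.94). Both WT libraries at the extremes of Sst, WT1 and WT3, were on lane A. KO3 and WT4, the only libraries with a high level of the Y-linked transcript Ddx3y, were both on lane B. Lane and this difference cannot be fully told apart.

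Over the 8 libraries the members moved in groups, and some of these groups depended on WT3. Dlx1 and Dlx2 had a Pearson correlation of 0.97 over the 8 libraries (log2 CPM), and 0.91 without WT3. For Gad1 and Gad2 it was 0.92, and 0.99 without WT3. Sst and Npy stood at 0.90, Slc32a1 and Sst at 0.88, Gad1 and Dlx6 at 0.84, and Dlx6 and Lhx6 at 0.82. Dlx1 and Sst moved apart, at −0.75, but at −0.25 without WT3, so that relation rests largely on 1 library. The distance of Dlx1 from Gad1 (−0.16), Dlx6 (0.27) and Lhx6 (−0.010) also rested on WT3. Without WT3 these correlations were 0.66, 0.83 and 0.61. Dlx5 went with none of the others over the 8 libraries, its largest correlation being 0.39, with Dlx2. Without WT3 that value was 0.52. These values describe 8 libraries, within each of which all genes share the depth and preparation, and the neighbouring Dlx genes could also share reads with overlapping transcripts.

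**Figure D3:**
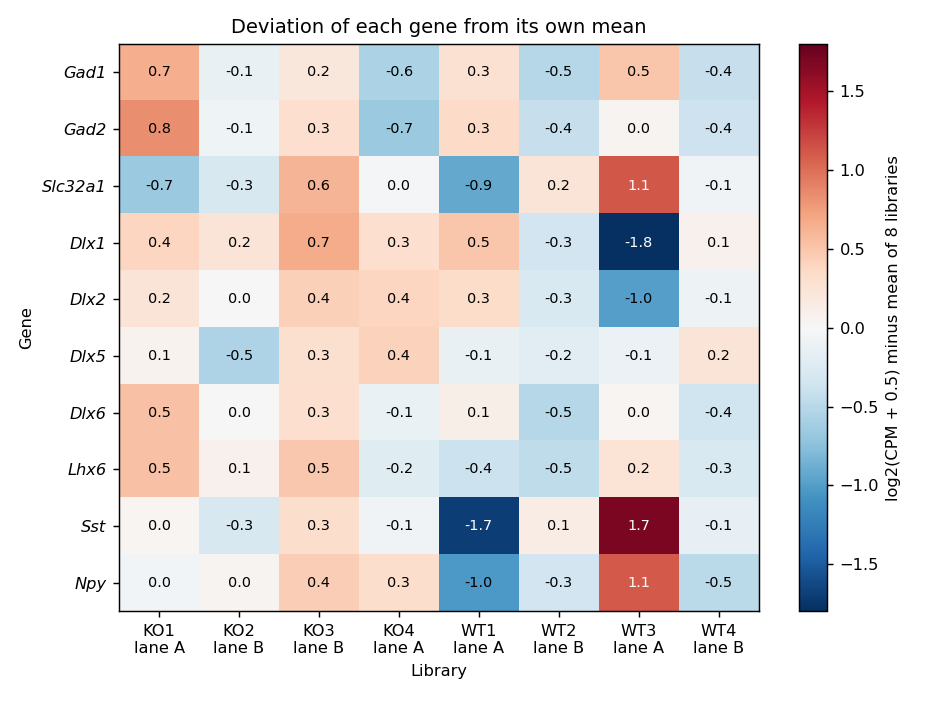
Deviation of each gene (rows) from its own mean over the 8 libraries (columns, with the sequencing lane), in log2(CPM + 0.5), red above and blue below the mean. WT3 is 1.8 below the mean for Dlx1 and 1.69 above it for Sst, and WT1 is 1.69 below it for Sst while Dlx1 is 0.50 above.

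The balance of transcription factors and peptides set WT1 and WT3 apart. The mean log2(CPM + 0.5) of the 5 factors minus that of the 2 peptides lay between −0.373 and −0.049 in the KO libraries. Among WT libraries it was 1.05 in WT1, −0.652 in WT2, −2.31 in WT3 and −0.164 in WT4. The ratio of Sst to Lhx6, a peptide against a factor of the same lineage, was 0.592 to 0.932 in KO, 0.322 in WT1, 1.27 in WT2, 2.30 in WT3 and 0.911 in WT4. Other ventral and interneuron genes, chosen here after their values were seen, differed in WT3 in both directions. Sp8, a factor of the caudal and lateral eminences, was at 2.73 CPM in WT3 and 12.8 to 33.8 CPM in the other 7 libraries, and Gsx2, a progenitor factor, was at 0.189 CPM in WT3 and 0.832 to 1.47 CPM elsewhere. Npas1, an interneuron factor, was at 3.96 CPM in WT3 and 0.896 to 3.57 CPM elsewhere, and Satb1 at 260 CPM in WT3 was exceeded by KO1 alone. Cort, a peptide related to somatostatin, was also high, at 2.12 CPM in WT3 and 0.160 to 0.489 CPM elsewhere. The order WT1 low and WT3 high in peptides held for both Sst and Npy.

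As an index of the GABAergic share, the mean log2(CPM + 0.5) of the 10 genes was set against that of 11 genes of excitatory neurons of the dorsal telencephalon. The difference was −1.69, −2.21, −1.77 and −2.44 in KO1 to KO4 and −2.19, −2.44, −2.28 and −2.27 in WT1 to WT4. KO1 and KO3 lay above every WT library, KO2 and KO4 did not, and the groups overlapped. The means were −2.03 ± 0.357 in KO and −2.30 ± 0.105 in WT (SD, n = 4), a difference of 0.27, which is less than the SD of the KO libraries and which was 0.16 without KO1 and 0.41 without KO4. Within lane A the difference was 0.17 and within lane B 0.37. Taken as the log2 ratio of summed CPM, it was −0.14 within lane A and 0.47 within lane B. The excitatory side of the index was at 5.91 ± 0.193 in KO and 5.91 ± 0.222 in WT, and over single libraries it ranged from 5.69 to 6.21, WT3 being the highest. The summed level of the 10 GABAergic genes was between 217 and 355 CPM in KO and between 195 and 322 CPM in WT.

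**Figure D4:**
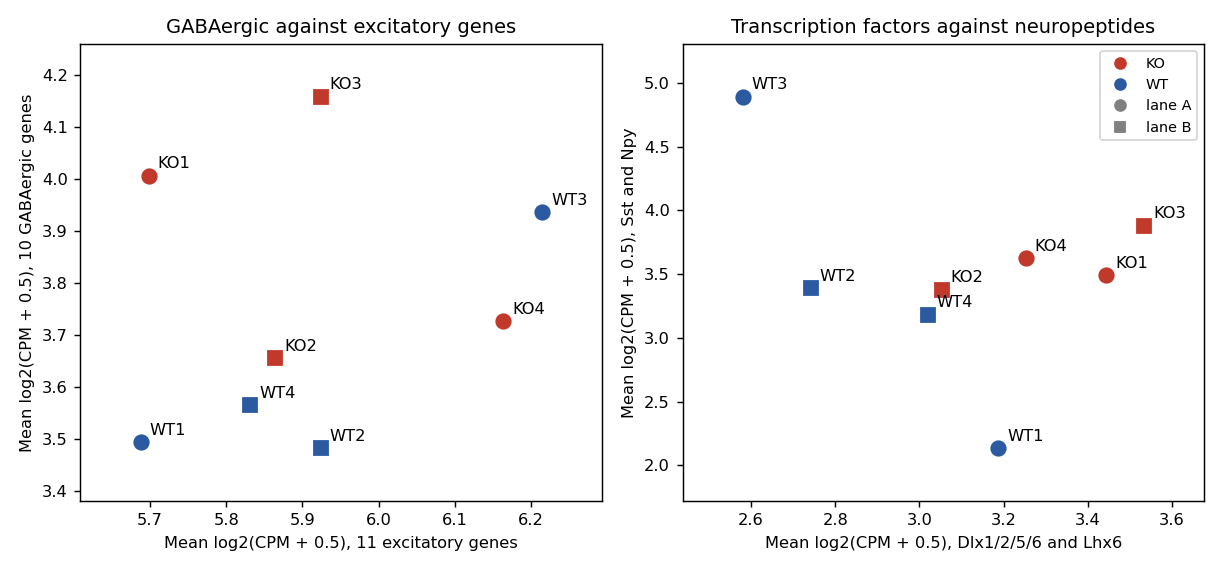
Left, mean log2(CPM + 0.5) of the 10 GABAergic genes (y axis) against that of 11 excitatory neuron genes (x axis), 1 point per library. Right, mean of Sst and Npy (y axis) against the mean of Dlx1, Dlx2, Dlx5, Dlx6 and Lhx6 (x axis). KO libraries are red, WT libraries blue, circles are lane A and squares lane B. In the right panel WT3 (2.58, 4.89) and WT1 (3.19, 2.14) lie at opposite ends, and the KO libraries lie between them in peptide level.

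Other genes of the GABAergic lineage, taken from 5 lists that also include the 10 members, were tested in the same model. Without the members, 41 of 48 listed genes were tested, 0 passed the BH threshold, 20 were higher and 21 lower in KO, and the median log2 fold change was −0.012. At the lower threshold 3 of the 41 were higher in KO and 3 lower. Of all 16272 tested genes, 2.22% were higher and 3.53% lower at that threshold. In ventral and interneuron transcription factors, members included, 15 of 18 tested genes were higher in KO with a median of 0.37. Over all tested genes 53.8% were higher. The medial eminence factors Sox6 (83.0 to 135 CPM) and Satb1 (144 to 289 CPM) were present in all libraries, but Nkx2-1, the progenitor factor upstream of Lhx6, stayed under 1 CPM in every library.

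GABA handling genes differed little, with 7 of 8 tested genes lower in KO, members included, and a median of −0.043. Over all tested genes 53.8% were higher in KO. The one past the lower threshold was Slc38a1, a transporter of glutamine, the precursor of glutamate and GABA, that many cells carry. KO libraries held it at 371 to 425 CPM and WT libraries at 433 to 497 CPM without overlap, a log2 fold change of −0.30 (SE 0.064, edgeR BH adjusted p = 0.226). The GABA transporter gene Slc6a11, largely glial, was present in all libraries at 231 to 453 CPM. Slc6a13 was under 1 CPM in every library.

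Interneuron subtype markers split evenly, with 6 of 13 tested genes higher in KO and a median of −0.051. Calb2, the calcium-binding protein calretinin, found in interneurons and in Cajal-Retzius cells, passed the lower threshold at 0.66 (SE 0.17, edgeR BH adjusted p = 0.312), with 13.2 to 16.9 CPM over the KO cultures and 5.6 to 15.7 CPM over the WT cultures, where WT3 lay among the KO libraries. Without WT3 it was at 0.82 (adjusted p = 0.0397). Cck passed it in the other direction at −0.32 (SE 0.14, adjusted p = 0.463). Pvalb, Vip and Crh, which mark classes that mature after birth, were under 1 CPM in every library. Among 10 migration and surface genes, 3 were higher in KO, with a median of −0.061. Ackr3, a chemokine receptor of migrating interneurons, was at 0.38 (SE 0.16, adjusted p = 0.447), and Nrp1, a semaphorin receptor found on many axons, was at −0.46 (SE 0.11, adjusted p = 0.249), each past the lower threshold.

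Transcripts that overlap the Dlx genes were measured separately. Dlx6os1, a long non-coding RNA that shares 4637 bases of gene span with Dlx6, was at 64.1, 34.5, 42.5 and 30.6 CPM in KO1 to KO4 and at 80.1, 25.6, 18.5 and 32.7 CPM in WT1 to WT4. It was lowest in WT3, where Dlx6 was not low. Its log2 fold change was 0.23 (SE 0.16, edgeR BH adjusted p = 0.624). Dlx1as, on the antisense strand of Dlx1 and overlapping 3344 bases of it, lay between 4.33 and 7.07 CPM in KO and between 4.08 and 6.85 CPM in WT, and in WT3, where Dlx1 was lowest, it was at 6.31 CPM. Whether strand was used in the counting is not given in the sources used here, so reads from Dlx1 or Dlx6 and from these partners may not have been told apart, and the same holds for Gad1 and Slc32a1, which each overlap a non-coding gene.

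Markers of other cell types were read beside these genes, and the counts below stand against 53.8% of all tested genes being higher in KO. Excitatory neuron genes had a median log2 fold change of −0.0087 (5 of 11 higher in KO) and pan-neuronal genes of −0.027 (5 of 13 higher), and 0 of either list passed the BH threshold. Striatal and other lateral eminence genes, whose neurons also use GABA, had a median of 0.045, with 6 of 11 tested genes higher. Among them Ppp1r1b, best known from striatal neurons, was at 0.41 (SE 0.17, edgeR BH adjusted p = 0.447), past the lower threshold.

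Cajal-Retzius genes were higher in KO in 5 of 6 tested genes (median 0.20), with Calb2, shared with the subtype list, the one past the lower threshold. Microglial genes were higher in 5 of 6 tested (median 1.22), their summed level lying between 2.72 and 32.7 CPM in KO and between 3.34 and 14.4 CPM in WT. Astrocyte genes were higher in 7 of 8 tested (median 0.15), with summed levels between 907 and 1791 CPM in KO and between 978 and 1536 CPM in WT. Oligodendrocyte lineage genes were higher in 3 of 7 (median −0.0084), progenitor genes in 4 of 8 (median 0.00050) and endothelial, mural and fibroblast genes in 4 of 8 (median 0.082). In each of these lists 0 genes passed the BH threshold. Outside the GABAergic, striatal and Cajal-Retzius lists, those past the lower threshold included Slc17a7, named after its values were seen, the vesicular glutamate transporter of cortical neurons, at −0.32 (SE 0.11, edgeR BH adjusted p = 0.390). The part of these cell types in the values of the GABAergic genes was not tested.

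**Figure D5:**
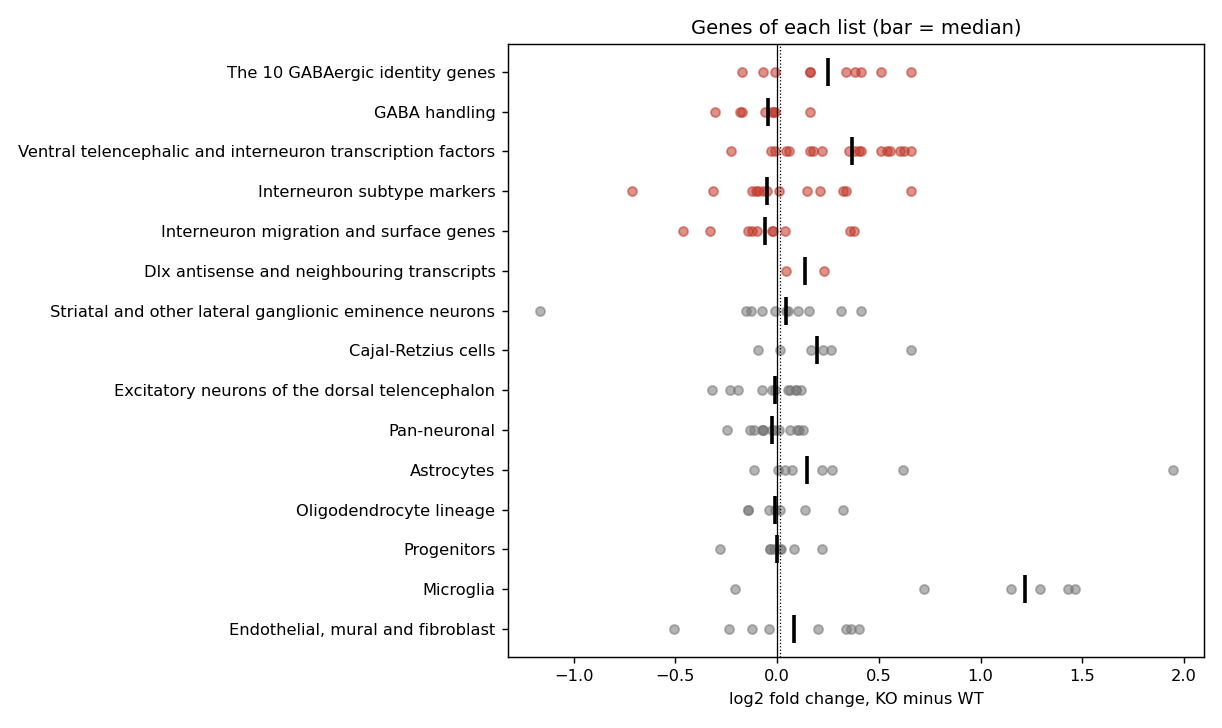
Log2 fold change, KO minus WT, of the tested genes of each list (x axis), 1 point per gene, with the median as a black bar, GABAergic lists in red and lists of other cells in grey; the dotted line is the median of all tested genes. The 10 identity genes have a median of 0.25, the transcription factor list 0.37 and the microglial list 1.22, while the excitatory and pan-neuronal lists lie at −0.0087 and −0.027.

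The genes outside the lists whose level followed the members most closely over the 8 libraries, by Pearson r with the mean z-score of the 10 genes, were Coprs (0.98), Zcwpw2 (0.90), Irf8 (0.87), Serpinb9 (0.87), Erp27 (0.86), Ctnna3 (0.85), Gm17396 (0.85), Car10 (0.84), Prelid3a (0.83) and Nrn1 (0.83). That mean z-score was highest in KO3 (0.841) and KO1 (0.656) and lowest in WT2 (−0.682). The members themselves followed this mean unevenly, with r from 0.10 for Dlx1 and 0.19 for Dlx2 to 0.94 for Lhx6. Coprs varied little, from 12.4 to 14.7 CPM. Zcwpw2, Irf8, Serpinb9, Erp27 and Ctnna3 were at most at 0.998 CPM in any library. These are the top 10 genes by that measure over 8 libraries, out of all those tested, and are given as a description.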

How the data were processed

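Poly-A RNA was sequenced from 4 KO and 4 WT cultures, which the study describes as coming from separate animals. The table the authors deposited holds raw counts of reads for each Ensembl gene. Reads were trimmed with Cutadapt 1.10, ribosomal reads were discarded with Bowtie2 2.2.8, the rest were aligned to mm10 with STAR 2.5.3a, and those with a unique alignment were assigned to genes by HTSeq-count 0.6.1p1 in union mode (versions from the submitters' processing notes). Union mode drops reads that fall on several genes, which lowers genes with overlapping partners. The strand setting is not given in the sources used here, and labels and methods differ in read length and RNA kit.

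The test was run on the counts by edgeR 4.0.16 in R 4.3.3 (filterByExpr by genotype, TMM, robust quasi-likelihood F test) with genotype and 1 surrogate variable from svaseq (sva 3.50.0), and Benjamini-Hochberg (BH) adjustment over 16272 genes at a threshold of 0.05. Standard errors were derived from the fold change and its F statistic. The lower threshold is an absolute log2 fold change above 0.25 with an unadjusted p under 0.05. CPM values are counts scaled to the library total, with 0.5 added on the log2 scale. Levels per kb use the exon length of GENCODE annotation on NCBIM37, as a length only, and positions are from RefSeq for GRCm38. Of 144 listed symbols 143 had a row. Named genes were all members, in the GABAergic lists the 3 most abundant and the 3 with the smallest p, in the other lists the 2 most abundant, and the 10 genes most like the members, with named exceptions, and some genes that this rule names are not reported here. The members and lists were chosen with earlier results of these data known. Every pair of libraries differed by more than sampling noise, so none was a duplicate. Alternatives covered surrogate variables, lane, strain label or replicate number as a term, other size factors and filters, DESeq2 1.42.0, limma-voom 3.58.1, each lane alone and left-out libraries. The procedure was tested on simulated counts.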

Additional observations from a re-analysis of the deposited data

Results flagged for a closer look

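Of 110 groups of 4 libraries examined for a single library far from the other 3 (Dixon's criterion), 7 were marked, where chance marks about 1 in 20, or 5.5 groups. No single member of the 10 was among them. The mean log2 level of the 5 transcription factors minus that of the 2 peptides was −0.049 in KO1 and −0.373 to −0.327 in the other KO libraries. Slc38a1 was at 425 CPM in KO2 and 371 to 377 CPM in the other KO libraries. Slc6a11 was at 453 CPM in WT2 and 267 to 283 CPM in the other WT libraries. Foxp1, a factor of striatal and cortical neurons, was at 117 CPM in WT3 and 83.4 to 88.7 CPM in the other WT libraries. Map2, a neuronal microtubule protein, was at 3580 CPM in KO1 and 2828 to 2898 CPM in the other KO libraries. The astrocytic glutamate transporters Slc1a3 and Slc1a2 were both low in KO4, at 471 CPM against 637 to 663 CPM and at 182 CPM against 376 to 398 CPM, and KO4 was also the KO library with the lowest Gad1 and Gad2.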

How the results depend on the processing

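The median log2 fold change of the 10 genes stayed positive under all 24 settings (0.11 on lane A alone to 0.46 on lane B alone), and the KO minus WT difference of the index stayed positive with another reference list, summary or pseudocount and without each library in turn (0.16 to 0.41 over the left-out libraries). The number of tested genes past the BH threshold, 8, became 4 with no surrogate variable, 4 with 2, 4 with lane as a term, 1 with the strain label as a term, 45 with no filter on low counts, 185 by DESeq2 with the surrogate variable, 0 on lane A alone, 99 on lane B alone, 19 without KO1 and WT1, 3 without KO3 and WT4, and between 3 and 91 when each library was left out, the 91 being without WT3. KO3 and WT4 were left out together because they alone held the Y-linked transcript Ddx3y at a high level (80.4 and 85.8 CPM, against at most 0.084 CPM in the other libraries), 1 library of each genotype. The number past the lower threshold, 936, became 396 with no surrogate variable, 452 with lane as a term, 310 with the strain label, 1488 with no filter, 433 by DESeq2 with no surrogate variable, 96 on lane A and 1612 on lane B. Members past the BH threshold, 0, became 1 without WT3 (Npy), a range of 0 to 1 over the left-out libraries. Members past the lower threshold, 0, became 2 with 2 surrogate variables, 1 with the strain label, 1 with no filter, 2 by DESeq2 with the surrogate variable, 6 on lane B alone, 5 without KO1 and WT1, and 0 to 3 over the left-out libraries. The cause was not tested.

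Same-numbered libraries did not deviate together, apart from number 1: the correlations of KO and WT deviations were 0.80, 0.012, 0.25 and 0.0023 for numbers 1 to 4, so the numbers were not taken as pairs. With the replicate block, 3 genes passed the BH threshold, 757 the lower threshold, and 2 members, Dlx6 and Lhx6, the lower threshold.

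Signs turned in 25 of 240 fits of the members, all with an adjusted p above 0.05. Gad1, at −0.0083, became 0.048 with no surrogate variable, 0.24 with 2, 0.11 with lane as a term, 0.040 with the replicate block, 0.0019 with no filter, 0.042 by DESeq2 with no surrogate variable, 0.024 by limma-voom, 0.44 on lane B alone, 0.10 without KO1 and WT1, and, over the left-out libraries, −0.18 to 0.32 (above 0 without KO2, KO4, WT1 or WT3). Gad2 became −0.30 with the strain label and −0.072 without KO3 and WT4. Slc32a1 became 0.088 on lane B alone and 0.036 without WT3 (−0.34 to 0.036 over the left-out libraries). Dlx5 became −0.13 on lane B alone and −0.0014 without KO4. Sst became 0.36 with 2 surrogate variables and was above 0 without KO2, KO3, KO4 or WT3 (−0.57 to 0.39 over the left-out libraries). Npy became −0.27 on lane A alone. Outside the members, Slc6a11 became 0.036 without WT2, Htr3a −0.070 with the strain label and −0.024 without KO3 and WT4, Robo1 0.046 on lane A alone, Dlx6os1 −0.10 on lane A alone, Drd2 −0.12 with the strain label, and Dlx1as −0.092 with the strain label, −0.23 on lane A alone, −0.20 without KO3 and WT4 and −0.088 to 0.18 over the left-out libraries. Calls were gained by Slc38a1 (adjusted p = 0.00229), Calb2 (0.0258) and Nrp1 (0.0112) under DESeq2 with the surrogate variable, by Nrp1 with no filter (0.0282) and by Calb2 without WT3 (log2 fold change 0.82, adjusted p = 0.0397). The fit with the strain label compares KO4 with WT2 and WT4, its other codes each lying within 1 genotype. Dlx5 and Dlx6 were the members with the fewest counts, 37 to 147 per library.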
